A study of Mus musculus with 3 samples.

Results

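The genes described here are 45 genes of the lysosome, the acidic digestive organelle of the cell, chosen by name from the GENCODE M21 annotation out of 55536 annotated genes, of which 22028 are protein-coding. All 45 names were found: 18 genes of the vacuolar proton pump, 4 genes of the lysosomal membrane and 23 genes of soluble hydrolases, their activators and precursors. Chromatin-bound RNA was depleted of ribosomal RNA and sequenced from bone-marrow-derived macrophages, which are phagocytes grown in culture from the marrow of mice of strain C57BL/6J. All 3 libraries, biological replicates 1, 2 and 3, had the same treatment. The cells first met Lipid A, the TLR4-activating part of bacterial lipopolysaccharide, at 100 ng/ml for 12 h. They were then kept without it for 12 h and exposed again at 100 ng/ml for 25 min. The labels record no age or sex, no genetic change and no transgene. Because no other condition was analysed here, the values give levels and their spread within this state, and no response to Lipid A.

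The vacuolar ATPase acidifies the lysosome. Its V1 sector, on the cytosolic side, splits ATP and turns a central stalk, and the V0 sector in the membrane carries protons through a rotating ring of proteolipid subunits past subunit a. Most hydrolases work best at the acid pH the pump creates, are marked with mannose 6-phosphate on their way to the lysosome, and break down glycans, sulfated sugars, lipids and proteins that a macrophage takes up. The transcription factors TFEB, TFE3 and MITF bind short E-box sequences upstream of many lysosomal genes, and RNA held on chromatin is rich in nascent and incompletely spliced transcripts.

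Annotated genes took between 13502401 and 17848798 expected counts per library. Protein-coding genes held 29.8%, 26.4% and 25.4% of the TPM in replicates 1, 2 and 3. TPM, the length-scaled abundance of transcripts, divides read counts by transcript length and brings them to the same total in each library, so a gene's TPM also depends on how much other RNA a library holds. The 8 macrophage markers were all detected, with summed levels of 936, 960 and 1016 TPM in replicates 1 to 3. None of the 8 neutrophil, 6 fibroblast, 5 T cell and 5 B cell markers was detected in the gene tables. The summed levels ran from 0.51 to 0.99 TPM for neutrophil markers, 0.01 to 1.5 for fibroblast markers, 0.23 to 0.36 for T cell markers and 0.15 to 0.36 for B cell markers. In the second transcript tables, described below, some of these markers passed the bound: the T cell markers Cd3d and Cd8a at means of 12.1 and 2.20 TPM, the fibroblast marker Col1a1 at 1.26 TPM and the neutrophil marker Mpo at 1.25 TPM. Of the listed markers, Ly6g, S100a8, Elane, Lum, Cd3e and Pax5 were at 0 TPM in each library of the gene tables. Posterior mean TPM, another column of the gene tables, passed 1 in every library for Pax5, Ltf, Cd3d, Dcn and Col1a1. On that scale Pax5 was at 4.3, 4.91 and 4.08, although its expected count was 0 in each library. Errors are SDs over the 3 libraries (n = 3). The labels give the same donor identifier for all and do not say whether separate animals were used, so the spread may be technical. Fewer cells of a type and less RNA per cell cannot be told apart in such bulk samples.

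At a bound of 1 TPM in every library, 44 of the 45 genes were detected, against 44.0% of all protein-coding genes. The exception was Smpd1. The median member stood at 30.6 TPM, while the median of the 9689 detected protein-coding genes was 11.0 TPM. On the log2(TPM + 1) scale the median per library was 4.89 ± 0.06 over the 45 genes and 3.56 ± 0.03 over detected protein-coding genes. The membrane genes had the highest list median, 6.08 ± 0.14, followed by the pump with 5.31 ± 0.24 and the hydrolases with 4.62 ± 0.05. From Smpd1 at 1.08 TPM to Tcirg1 at 1211 TPM the levels spread over 3 orders of magnitude. Means of at least 100 TPM were found for 7 of the 45 genes and for 495 of the 9689 detected protein-coding genes.

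**Figure D1:**
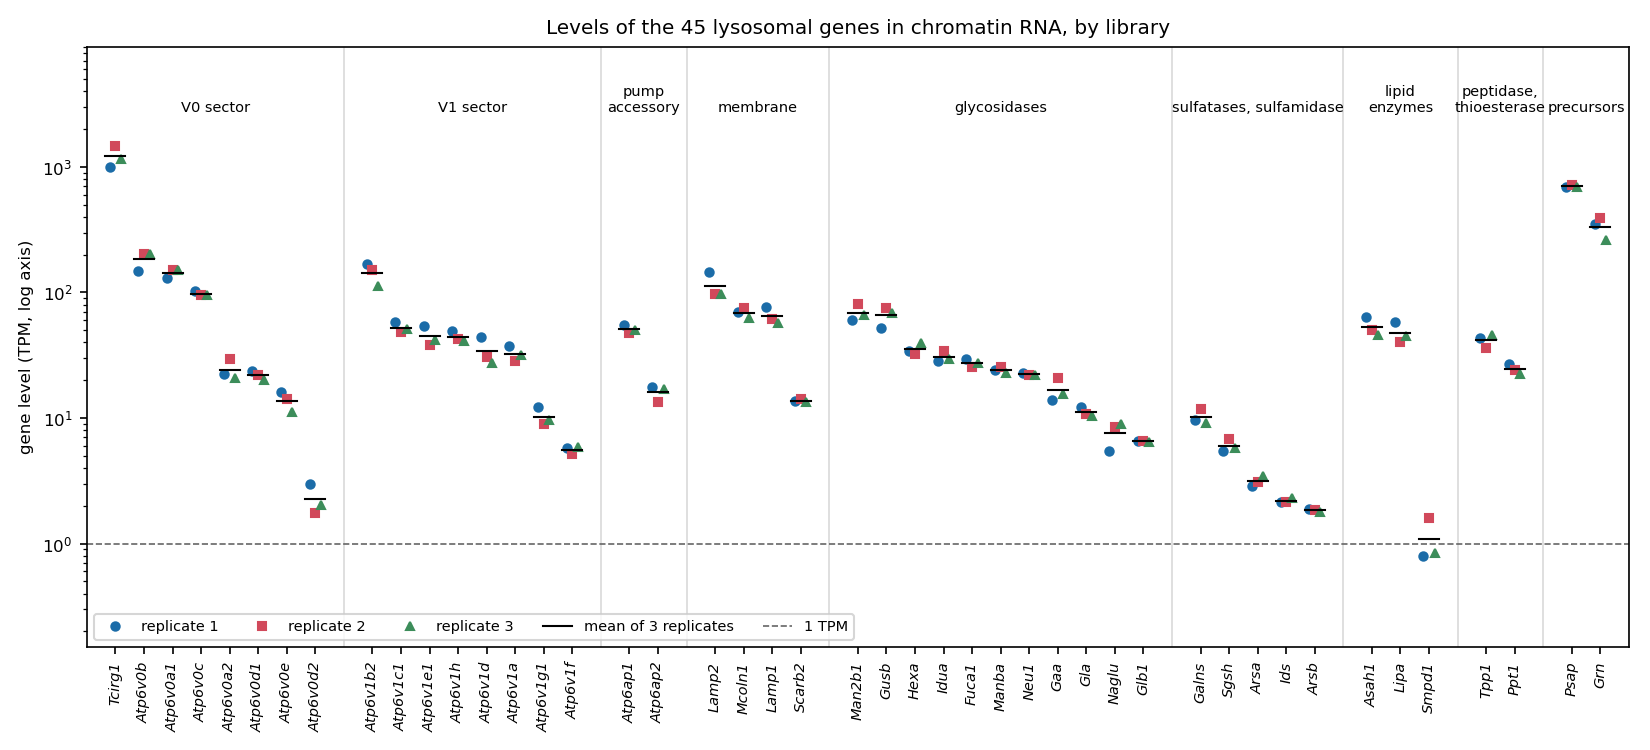
Level of each of the 45 genes in TPM (log axis), grouped by role and ordered by mean within a role. Symbols are the 3 libraries, black lines their means and the dashed line is the detection bound of 1 TPM. Tcirg1, Psap and Grn stand above all other genes, and Smpd1 is the only gene with libraries under the bound.

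The V0 sector held the highest gene of all. Tcirg1 encodes subunit a3, the isoform of the proton channel that serves lysosomes of macrophages and the bone-facing membrane of osteoclasts (chr19:3896050-3907133, minus strand, GRCm38). Its level was 999, 1469 and 1164 TPM in replicates 1, 2 and 3, a mean of 1211 ± 239, which ranked 4 among protein-coding genes. In these values replicate 2 was highest and replicate 1 lowest, and no library of any other member reached the lowest library of Tcirg1. The second transcript tables gave 1607, 1456 and 1433 TPM, with replicate 1 highest. Protein-coding transcripts alone gave 383, 416 and 447 TPM, with replicate 3 highest. The order of the libraries for Tcirg1 thus depends on the quantification. Atp6v0a1, which encodes the alternative subunit a1, stood at 129, 149.9 and 152 TPM. Atp6v0a2, which encodes subunit a2, known from Golgi and endosomal pumps, stood at 22.4, 29.5 and 20.96 TPM. The posterior mean TPM in the same tables put Atp6v0a2 at 79.8, 28.4 and 71.95, and no other member moved by as large a factor on that scale. The order a3 above a1 above a2 held in each library by TPM. Within libraries, Tcirg1 exceeded Atp6v0a1 by 3.05 ± 0.20 on the log2(TPM + 1) scale, higher in 3 of 3 libraries. The exact two-sided sign-flip test gave p = 0.25, also 0.25 when adjusted over the 4 gene pairs compared here, and 0.25 is the smallest p that 3 libraries allow.

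Genes of the proteolipid ring were also high. Atp6v0b, a subunit of that ring, was at 149, 201 and 202 TPM, and Atp6v0c, its most abundant subunit in the assembled pump, at 103, 95.0 and 95.3 TPM. The 2 genes did not overlap, whereas the range of Atp6v0b overlapped that of Atp6v0a1. Subunit d couples the ring to the stalk and has 2 genes. Atp6v0d1, the broadly used isoform, was at 23.7, 22.2 and 19.9 TPM, and Atp6v0d2, the isoform known from osteoclasts, was the lowest pump gene at 2.99, 1.76 and 2.02 TPM. Atp6v0d2 was lower than Atp6v0d1 in 3 of 3 libraries. The difference was -2.83 ± 0.22 on the log2(TPM + 1) scale (exact sign-flip p = 0.25, adjusted over 4 pairs 0.25, the smallest possible). Atp6v0e, a small V0 subunit, was at 13.8 ± 2.39 TPM.

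The pairing of a high Tcirg1 with a low Atp6v0d2 was read beside osteoclast markers, since both genes are used by osteoclasts. Of 9 such markers only Nfatc1 was detected, at 14.2 ± 1.31 TPM. The summed level of the list was 16.4, 17.1 and 14.5 TPM in replicates 1 to 3. Dcstamp, Ocstamp, Calcr and Oscar were listed at 0 TPM in each library of the gene tables. Ctsk, Acp5, Itgb3 and Mmp9 did not exceed 1.00 TPM in any library. By posterior mean TPM, Acp5 was at 1.36, 1.09 and 0.85 and Dcstamp at 1.01, 1.08 and 0.93. Of the 9 markers, 4 passed the bound in the second transcript tables: Nfatc1 at a mean of 13.6 TPM, Ocstamp at 3.81, Acp5 at 3.20 and Ctsk at 1.45.

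The V1 sector was lower and more even, and 6 of its 8 genes had means between 30 and 150 TPM. Atp6v1b2, which encodes the B2 subunit that shapes the ATP-binding sites together with subunit A, was highest at 168, 150.9 and 112 TPM. Replicate 3 was lowest for this gene. Atp6v1c1, the C1 subunit that joins V1 to V0, followed at 57.7, 48.1 and 51.5 TPM. The stalk and regulatory subunits Atp6v1e1 (44.9 ± 8.19 TPM), Atp6v1h (44.3 ± 4.48 TPM) and Atp6v1d (34.0 ± 9.04 TPM) and the catalytic subunit Atp6v1a (32.5 ± 4.64 TPM) lay close together. Atp6v1g1, a stalk subunit, was at 10.3 ± 1.78 TPM, and Atp6v1f, a small subunit of the rotor, was lowest at 5.76, 5.19 and 5.85 TPM. The 2 accessory genes were Atp6ap1, whose product Ac45 helps assemble V0, at 55.1, 47.3 and 50.7 TPM, and Atp6ap2, the (pro)renin receptor, at 17.7, 13.5 and 16.9 TPM. From Atp6v0d2 to Tcirg1, the means of the 18 pump genes differed by more than 2 orders of magnitude.

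Of 7 further pump genes, mostly isoforms known from kidney, testis or brain, 1 was detected in the gene tables. This was Atp6v1g2, at 4.70 ± 0.68 TPM. Atp6v1b1, the B1 isoform, reached 1.26 TPM in replicate 1 and 0.75 and 0.68 TPM in the others, and Atp6v1c2 and Atp6v0e2 stayed under 0.13 TPM there. Atp6v0a4, Atp6v1e2 and Atp6v1g3 were listed at 0 in each library of these tables. The second transcript tables listed Atp6v0e2 at 1.20, 3.26 and 2.04 TPM and Atp6v1g3 at 1.66, 1.03 and 0.74 TPM, while Atp6v0a4 and Atp6v1e2 were at 0 there too. Factors that assemble or regulate the pump were detected for 7 of 8 genes. Dmxl1 and Wdr7, subunits of the complex that brings V1 back to V0, were highest at 77.8 ± 11.0 and 65.1 ± 1.18 TPM. Tmem9 was the gene not detected, at 0.36 ± 0.22 TPM.

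A gene's level sums several annotated transcript types. Transcripts that the annotation calls protein_coding held 34.3% of the Tcirg1 level, 416 ± 32.2 TPM. The rest was mainly in retained-intron transcripts, models in which an intron stays in the RNA. The 2 highest Tcirg1 transcripts were Tcirg1-203, a retained-intron model of 1066 bases, at 216, 421 and 284 TPM, and the protein-coding Tcirg1-201 at 241, 307 and 335 TPM. These 2 transcripts did not keep the same order in the 3 libraries. Atp6v1b2 had 21.6% of its level in protein-coding transcripts and Atp6v1h 24.4%. For Atp6v0a1 and Atp6v0c the remainder was in transcripts annotated as processed_transcript, which have no open reading frame assigned. Atp6v0c-205, of that type, took 74.5% ± 4.33 of Atp6v0c. On protein-coding transcripts alone the pump's median log2(TPM + 1) was 4.08 ± 0.18, and Tcirg1 exceeded Atp6v0a1 by 3.43 ± 0.29.

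**Figure D2:**
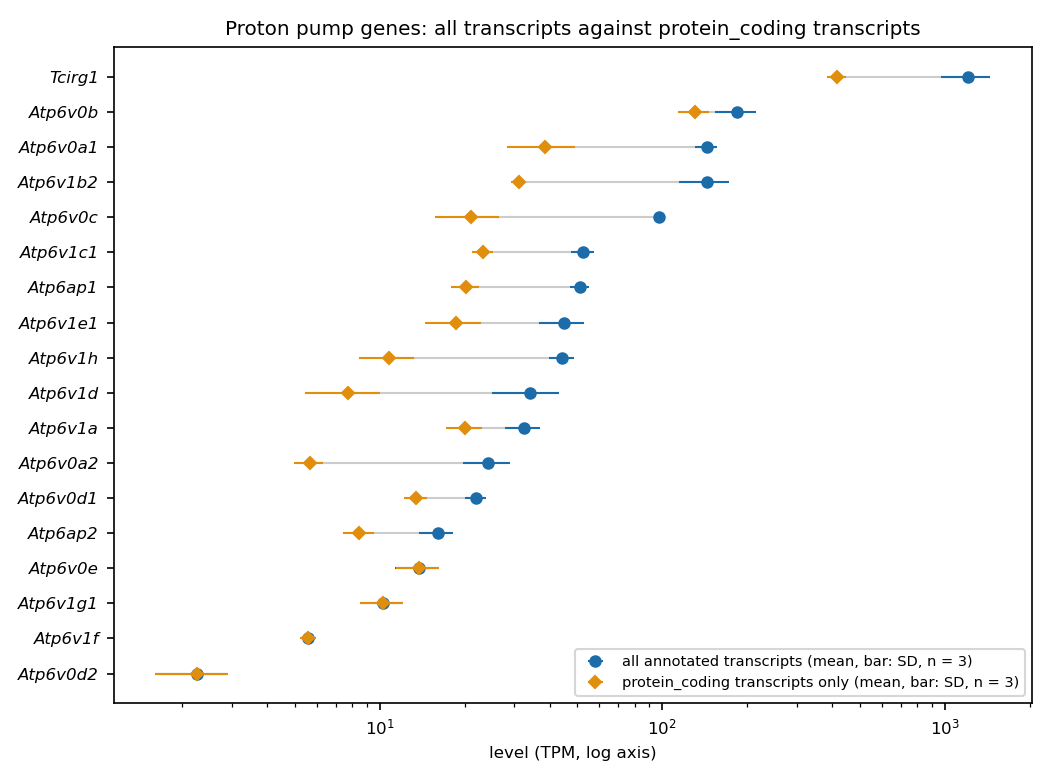
Level of the 18 pump genes in TPM (log axis), as the sum over all annotated transcripts (circles) and over protein_coding transcripts only (diamonds). Points are means and bars SDs of 3 libraries. Tcirg1 falls from 1211 to 416 TPM and stays highest, while Atp6v0e, Atp6v1g1, Atp6v1f and Atp6v0d2 have the same value on both scales. The annotation gives the latter genes protein_coding transcripts only.

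Lamp1 and Lamp2 encode the heavily glycosylated proteins that line the lysosomal membrane. Lamp2 was at 146, 96.6 and 97.1 TPM and Lamp1 at 76.0, 61.7 and 56.8 TPM. Replicate 1 was highest for both, and the lowest library of Lamp2 lay above the highest of Lamp1. Within libraries Lamp1 differed from Lamp2 by -0.78 ± 0.15 on the log2(TPM + 1) scale, lower in 3 of 3 libraries (exact sign-flip p = 0.25, adjusted over 4 pairs 0.25, the smallest possible). Mcoln1, which encodes the calcium channel TRPML1, was at 69.5, 74.7 and 62.6 TPM. Scarb2, whose product LIMP-2 carries glucocerebrosidase to the lysosome, was at 13.8, 14.1 and 13.4 TPM. Mcoln1 and Lamp1 overlapped in range, and Scarb2 lay below both in each library.

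Lamp2 is spliced to 3 alternative last exons, which change the tail of the protein that faces the cytosol. The forms are known as A, B and C, and form A is the receptor of chaperone-mediated autophagy. The last 60 coding bases of the annotated messages are shown because they are where the forms differ, 5′ to 3′ on the minus strand of chromosome X (GENCODE M21 transcripts, GRCm38). The stop codon is in capitals. The last exons span chrX:38405062-38405571 for Lamp2-201 (form A), chrX:38419507-38421851 for Lamp2-202 (form B) and chrX:38401357-38402281 for Lamp2-203 (form C).
Lamp2-201: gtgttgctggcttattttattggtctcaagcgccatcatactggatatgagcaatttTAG
Lamp2-202: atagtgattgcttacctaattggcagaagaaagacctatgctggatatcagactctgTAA
Lamp2-203: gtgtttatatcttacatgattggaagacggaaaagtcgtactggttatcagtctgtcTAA
Form B was at 47.5, 32.0 and 34.1 TPM, form A at 19.1, 13.3 and 13.7 TPM and form C at 7.45, 6.24 and 5.19 TPM. The order B above A above C held in each library. Of the protein-coding Lamp2 level, form B took 63.5% ± 1.27, form A 25.8% ± 0.0205 and form C 10.6% ± 1.26. The second transcript tables kept the order with a smaller lead, at 50.7%, 36.1% and 13.2%.

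The genes were chosen by name, not by the stretch of DNA before the start of transcription. E-boxes upstream of many lysosomal genes were known beforehand, so the shares below are a description, and no difference was tested. RefSeq promoter windows (GRCm38.p6), from 250 bases before to 50 after the start, were matched for 37 of the 45 genes. Not matched were Atp6v0a2, Atp6v0d2, Atp6v1b2, Atp6v1c1, Atp6v1g1, Atp6v1h, Galns and Asah1. The E-box hexamer CACGTG, which reads the same on both strands, occurred in 12 of the 37 genes, or 32.4%. Among all protein-coding genes with a window 9.18% held it, and among detected ones 12.4%. Each of the 12 had at least 1 hexamer with a T before it or an A after it, as in the element that TFEB recognises. Such a hexamer occurred in 5.15% of all protein-coding genes with a window and in 7.63% of detected ones. Of the 18 hexamers, 13 began within 100 bases before the start. With 2 or more hexamers stood 4 of the 37 members, 0.890% of all protein-coding genes with a window and 1.44% of detected ones. Lamp1 had 4, a number reached by 5 protein-coding genes in all.

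The 80 bases before the start are shown for the lysosomal genes with the most hexamers near their start and for Tcirg1, the highest gene, whose windows held none. Hexamers are in capitals, and each sequence runs 5′ to 3′ on the gene's strand. The positions are chr8:13159081-13159160 for Lamp1 and chr8:3500439-3500518 for Mcoln1, both on the plus strand, and chr4:117887330-117887409 for Atp6v0b and chr19:3907134-3907213 for Tcirg1, both on the minus strand.
Lamp1: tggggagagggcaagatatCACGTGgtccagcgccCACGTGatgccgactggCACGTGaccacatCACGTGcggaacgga
Mcoln1: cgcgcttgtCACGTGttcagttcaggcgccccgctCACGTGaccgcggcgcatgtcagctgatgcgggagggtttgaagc
Atp6v0b: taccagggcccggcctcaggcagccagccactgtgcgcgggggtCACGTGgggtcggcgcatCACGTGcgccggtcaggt
Tcirg1: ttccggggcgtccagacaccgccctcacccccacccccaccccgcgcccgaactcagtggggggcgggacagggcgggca
The hexamers of Lamp1 begin 61, 45, 28 and 15 bases before the start. Members with and without the hexamer overlapped in level. The 12 genes with it had a median of 15.3 TPM, with a range from 3.15 (Arsa) to 184 TPM (Atp6v0b). The 25 genes without it had a median of 35.4 TPM, with a range from 1.08 (Smpd1) to 1211 TPM (Tcirg1). Tcirg1, Psap and Grn, the highest members, were among those without it. A match is a description of the letters and shows no binding, and binding was not measured here.

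**Figure D3:**
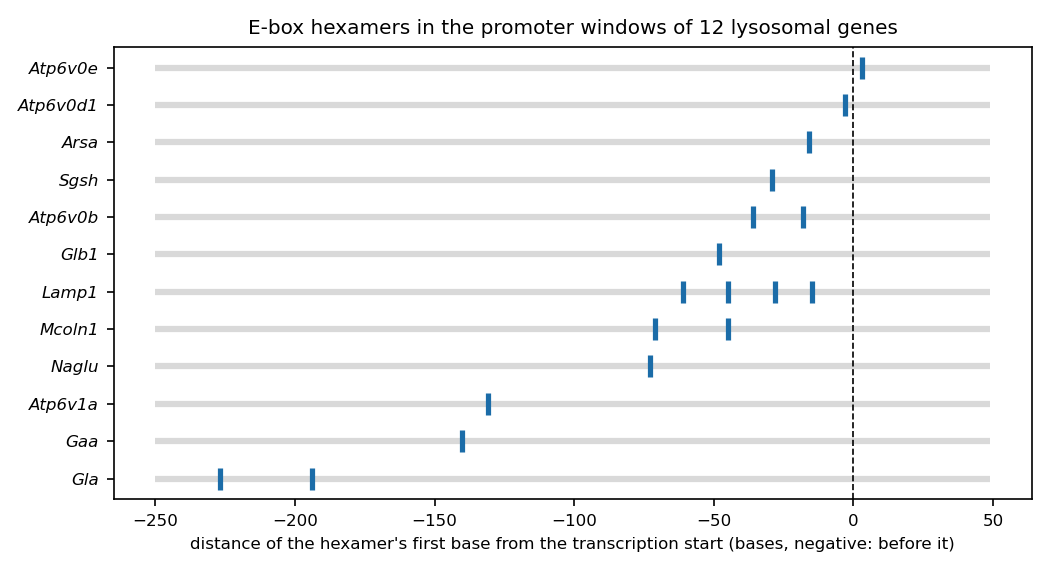
Position of each E-box hexamer relative to the transcription start (bases, dashed line at the start) in the 300-base promoter windows of the 12 genes that hold it. Lamp1 has 4 hexamers within 61 bases before its start. Atp6v0b, Mcoln1 and Gla have 2 each, and those of Gla lie farther away than all others.

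The precursor genes led the hydrolase group. Psap encodes prosaposin, which is cut into the saposins that lift lipids to their enzymes, and Grn encodes progranulin, which is cut into granulins in the lysosome. Psap was at 688, 719.6 and 691 TPM, a mean of 699.6 ± 17.3 and rank 16 among protein-coding genes (chr10:60277627-60302597, plus strand). Grn was at 348, 388 and 262 TPM, with replicate 3 lowest. Psap exceeded Grn in 3 of 3 libraries, by 1.09 ± 0.27 on the log2(TPM + 1) scale (exact sign-flip p = 0.25, adjusted over 4 pairs 0.25, the smallest possible). The 2 genes differ in the kinds of transcript annotated. All 5 annotated Psap transcripts are protein-coding, so its share in them is fixed by the annotation. Grn has 10 annotated transcripts, 6 of them retained-intron models. It had 44.6% of its level in protein-coding transcripts and 55.0% ± 4.28 in retained-intron transcripts. On protein-coding transcripts alone Psap exceeded Grn by 2.24 ± 0.17, and Psap, at 699.6 TPM, stood above Tcirg1, at 416 TPM. That scale can lower Grn and Tcirg1 but not Psap, so these 2 comparisons do not by themselves show a difference in RNA. The messages of Psap could not be told apart with confidence. Psap-202 took 505 TPM in the first transcript tables and 30.7 TPM in the second, while Psap-204 took 53.3 and 261 TPM.

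The 11 glycosidases, which remove sugars from glycans and glycolipids, lay between 6.51 and 69.1 TPM. Man2b1, the lysosomal alpha-mannosidase, was at 60.3, 81.0 and 65.9 TPM, and Gusb, beta-glucuronidase, at 52.1, 75.8 and 68.8 TPM. Replicate 1 was lowest and replicate 2 highest for both, and their ranges overlapped. Hexa, the alpha chain of the hexosaminidase that degrades GM2 ganglioside, was at 35.4 ± 3.98 TPM. Idua, which acts on heparan and dermatan sulfate, stood at 30.6 ± 2.98 TPM, Fuca1, a fucosidase, at 27.5 ± 1.92, and Manba, beta-mannosidase, at 23.9, 25.3 and 22.7 TPM. Neu1, the lysosomal sialidase, was at 22.8, 22.1 and 22.1 TPM. Gaa, the glycogen-degrading acid glucosidase, was at 13.95, 20.8 and 15.6 TPM, with replicate 2 highest. In the second transcript tables replicate 2 was the lowest for Gaa, at 37.6, 33.1 and 38.1 TPM. Gla, alpha-galactosidase A, was at 12.2, 10.8 and 10.3 TPM. Naglu, which acts on heparan sulfate, was at 7.65 ± 1.93 TPM. Glb1, beta-galactosidase, was lowest at 6.52, 6.59 and 6.41 TPM. These 3 values span less, in TPM, than those of any other glycosidase.

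The sulfatases and the sulfamidase formed the lowest role. Their median was 3.15 TPM, and 3 of the 5 genes stayed under 5 TPM in each library. Galns, which removes sulfate from keratan and chondroitin sulfate, was at 9.66, 11.8 and 9.16 TPM. Sgsh, the heparan sulfamidase, was at 5.44, 6.84 and 5.76 TPM, below Galns in each library. Arsa, which acts on sulfatide, was at 3.15 ± 0.29 TPM and Ids, iduronate sulfatase, at 2.20 ± 0.10. Arsb, the arylsulfatase of dermatan sulfate, was lowest at 1.88, 1.85 and 1.79 TPM. Arsa shares 1190 bases of its locus with the antisense gene C230037L18Rik, which was listed at 4.88 TPM, and the strand setting of the counting is not given in the sources used here, so their reads cannot be told apart. Sumf1, the enzyme that activates all sulfatases and is not among the 45 genes, was at 20.8 ± 4.03 TPM.

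Among the lipid enzymes, Asah1, acid ceramidase, was at 63.5, 50.2 and 46.1 TPM, and Lipa, the acid lipase that frees cholesterol from its esters, at 57.7, 40.1 and 44.8 TPM. Replicate 1 was highest for both. Smpd1, acid sphingomyelinase, was at 0.79, 1.61 and 0.84 TPM, from 23, 48 and 31 expected counts. It thus crossed the bound of 1 TPM in replicate 2 only. A count of 0 would allow 3 counts, so reads of Smpd1 were present in each library, and this covers counting error only. Tpp1, a lysosomal peptidase, was at 43.5, 36.3 and 45.7 TPM and Ppt1, the thioesterase that strips palmitate from proteins, at 27.1, 24.3 and 22.6 TPM. Loss of either enzyme causes neuronal ceroid lipofuscinosis in humans.

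How much of each gene's level came from retained-intron transcripts was computed for the 25 members with both a protein-coding and a retained-intron transcript and at least 5 TPM in every library. The median share was 48.3% ± 2.16, and over the 4726 protein-coding genes that met the same terms it was 46.0% ± 2.42. More than 50% was held by such transcripts in 11 of the 25 members, against 42.8% of those genes, so the members as a group lay near the background. The members ranged widely. Neu1 was at 93.8%, 94.7% and 91.3% in replicates 1 to 3, rank 27 of 4726 genes, and at 97.3% ± 1.21 in the second tables. Almost all of this was Neu1-202, a retained-intron model of 3619 bases, at 20.5, 19.5 and 19.0 TPM, while the only protein-coding model, Neu1-201, was at 1.42, 1.16 and 1.92 TPM. The coding transcript of the sialidase was thus near the bound of 1 TPM in each library of the first tables. In the second tables its mean was 0.58 TPM, under that bound.

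Next to Neu1 came Tpp1 at 79.3% ± 2.48, Atp6v1b2 at 77.9% ± 4.25, Atp6v1h at 75.1% ± 7.39, Atp6v1d at 70.9% ± 3.40 and Tcirg1 at 63.7% ± 5.60. The second tables gave Tcirg1 64.0% but Atp6v1h 46.8%, so the place of Atp6v1h depends on the quantification. The lowest shares were those of Manba at 13.1% ± 2.53, Lamp2 at 20.1% ± 0.89 and Scarb2 at 20.6% ± 3.63. Members of the V1 sector thus lie on both sides of the background, with Atp6v1a at 37.9% ± 6.76. Of the membrane genes, Lamp1 had 47.5% ± 2.18 and Mcoln1 41.9% ± 4.15.

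**Figure D4:**
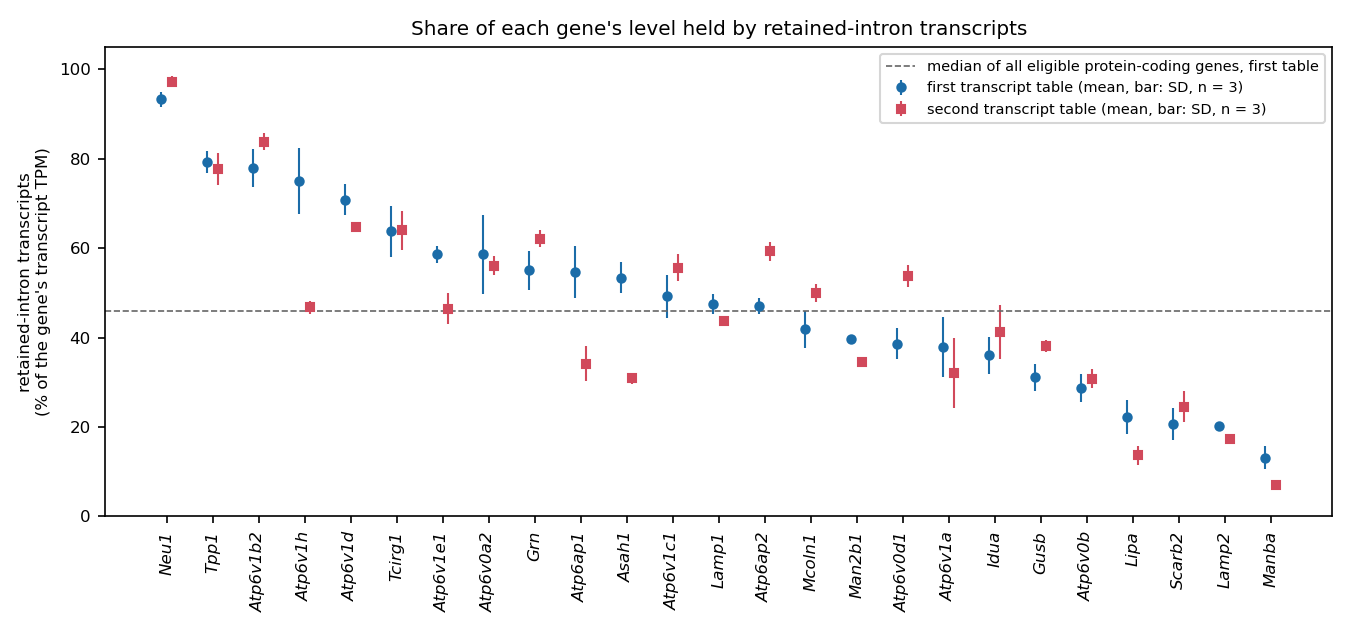
Share of each gene's transcript TPM held by retained-intron transcripts (percent) for the 25 eligible members, in the first (circles) and second (squares) transcript tables. Points are means and bars SDs of 3 libraries, and the dashed line is the median of 4726 protein-coding genes, 46.0%. Neu1 is above 90% in both, and Atp6v1h, Atp6ap1 and Asah1 are lower in the second tables.

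A second quantification of the same libraries was deposited as a further set of transcript tables, and it placed the members in a similar order (Spearman 0.965 over 45 genes, a description of genes in the same libraries). Its median log2(TPM + 1) over the members was 5.50 ± 0.32. It was more than 2-fold above the first for 3 members, against 17.3% of detected protein-coding genes. Gla, with a mean of 11.1 TPM in the first, was at 62.7, 31.9 and 46.8 TPM in the second. Gaa, with a mean of 16.8 TPM, was at 37.6, 33.1 and 38.1 TPM. Manba, with a mean of 24.0 TPM, was at 53.6, 41.2 and 55.4 TPM. For these 3 genes the libraries of the first and the second quantification did not overlap. The excess of Gla lay in Gla-202, a model of 337 bases, which was at 0.98 TPM in the first tables and 34.3 ± 11.6 TPM in the second. That of Manba included Manba-202, at 0.92 and 16.9 TPM. The level of Gla is therefore uncertain by a factor of 4.25.

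Differences between the libraries were small for most members. The biological coefficient of variation (BCV), the relative spread between replicates beyond counting noise as edgeR estimates it, had a median of 0.178 over the 45 genes, 0.192 over detected protein-coding genes and 0.203 over the 14193 genes tested. Per gene it ranged from 0.162 (Mcoln1) to 0.260 (Smpd1), and these values are drawn towards the trend of all genes. After normalisation of library totals, Ids, Neu1 and Mcoln1 differed least, with ranges of 0.029, 0.033 and 0.041 in log2 CPM (read counts scaled to the library total) over the 3 libraries. Smpd1, Naglu, Atp6v0d2 and Gaa differed most, with ranges of 0.86, 0.73, 0.70 and 0.69.

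The libraries in which the members were highest were counted by group, and the difference between groups was not tested. The highest TPM was in replicate 1 for 13 of the 18 pump genes, among them 7 of the 8 V1 genes, but for 7 of the 23 hydrolase genes, and replicate 1 was highest for 41.6% of detected protein-coding genes. On normalised CPM the counts were 11 of 18 and 6 of 23, beside 34.1% of detected protein-coding genes. The GC content of a gene's protein-coding transcripts moved with the difference between libraries. Over the 45 genes the difference between replicates 1 and 2 in log2 CPM fell with GC content, with a Pearson correlation of -0.68 and a Spearman correlation of -0.66 across genes. Over 9628 detected protein-coding genes the Pearson correlation was -0.54. For replicates 1 and 3 the Pearson correlation was -0.61 over the members and -0.38 over those genes, and for replicates 2 and 3 it was 0.32 and 0.31. Genes low in GC such as Atp6v0d2, Atp6v1d and Lamp2 were higher in replicate 1. Genes high in GC such as Naglu, Gaa and Tcirg1 were higher in replicate 2. By TPM of the second quantification, Gaa and Tcirg1 were instead higher in replicate 1 than in replicate 2, while Naglu kept its direction. Atp6v0c, Mcoln1 and Neu1, also high in GC, differed between replicates 1 and 2 by 0.01, 0.04 and 0.01. The starting RNA also differed, with 1 µg for replicate 1, 250 ng for replicate 2 and 500 ng for replicate 3. The part of GC content or RNA input in these differences was not tested.

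**Figure D5:**
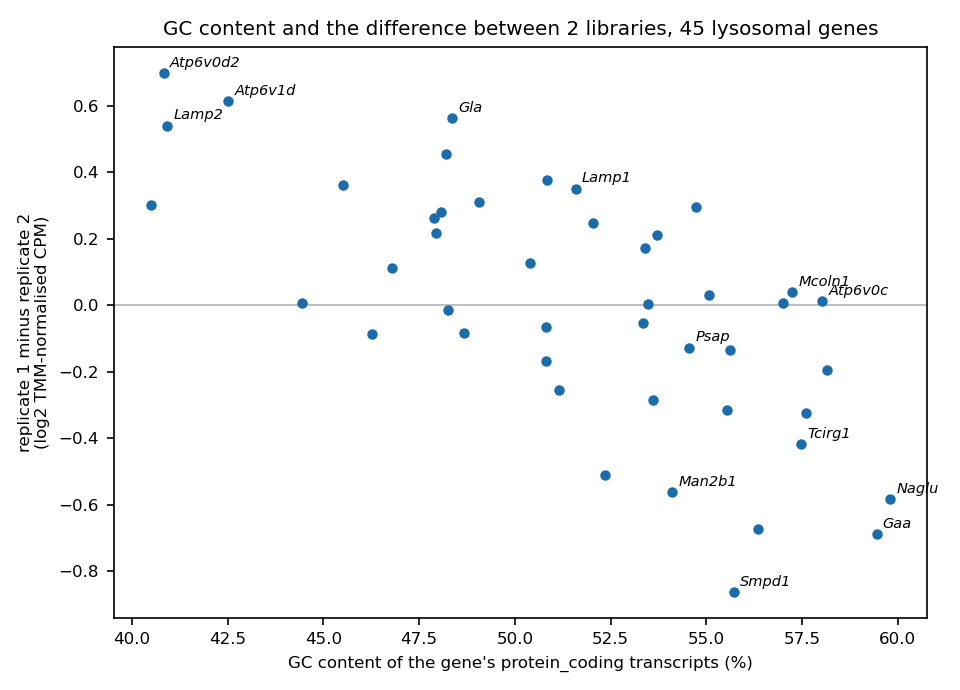
Difference between replicates 1 and 2 in TMM-normalised log2 CPM (vertical axis) against the GC content of protein-coding transcripts in percent (horizontal axis) for the 45 genes, with some names. The points fall from upper left to lower right, with a Pearson correlation of -0.68. Atp6v0d2 and Smpd1 mark the ends of the range.

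Lists of other lysosomal genes were counted at the same bound. Of 16 further hydrolases and activators 15 were detected. Among them were Ctsa, the protective protein that stabilises Neu1 and beta-galactosidase, at 244 ± 22.4 TPM, and Lgmn, an asparaginyl endopeptidase, at 140.1 ± 25.1 TPM. The gene not detected was Gm2a, the GM2 activator, at 1.10 ± 0.27 TPM with replicate 3 at 0.79. Of 11 cathepsins, the lysosomal proteases, 10 were detected, with Ctsb at 394 ± 66.1, Ctsc at 306 ± 93.4 and Ctsd at 270.1 ± 37.8 TPM, and Ctsk was not. Of 20 further membrane proteins 18 were detected, and Clcn7, the chloride-proton exchanger that works beside the pump, was highest at 208 ± 31.8 TPM. Lamp3 and Laptm4b were not detected. Among 10 genes for sorting and maturation 9 were detected. Gga1, a sorting adaptor, led at 52.8 ± 11.0 TPM, M6pr, the small mannose 6-phosphate receptor, was at 30.2 ± 3.55 TPM and Sort1 was not detected. Igf2r, the large mannose 6-phosphate receptor, was at 14.8 ± 1.09 TPM in the first and 72.1 TPM in the second quantification.

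Of 20 regulators of lysosomal genes and of mTORC1 on the lysosome 18 were detected. Fnip2, a partner of folliculin, was by far the highest at 349.9, 229 and 255 TPM, with its paralogue Fnip1 at 55.4 ± 14.9 TPM and folliculin itself, Flcn, at 66.3 ± 5.07 TPM. The transcription factors of the TFEB family lay close together: Tfe3 at 39.3 ± 5.75 TPM, Mitf at 37.5 ± 6.61, Tfec at 32.4 ± 5.15 and Tfeb at 22.2 ± 5.09. The second quantification placed Tfeb at 78.8 TPM, so the order within the family depends on the quantification. Rragb and Lamtor2, subunits of the amino acid sensing machinery, were not detected, at 0.58 ± 0.33 and 1.35 ± 0.42 TPM. Lamtor2 missed the bound in replicate 1 only, at 0.98 TPM. In the second quantification Lamtor2 passed it in each library, at 1.91, 2.34 and 1.85 TPM.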

How the data were processed

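Per the file headers, the deposited gene tables and first transcript tables hold expected counts, TPM and posterior mean TPM, with columns named as in RSEM. The deposited second transcript tables hold estimated counts and TPM, named as in kallisto. The accompanying notes give mm10 and GENCODE M21. The aligner, its version and whether counting used strand: not given in the sources used here. Rows outside GENCODE M21 held 1.75%, 0.396% and 0.239% of the expected counts and were left out.

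Members and gene lists were chosen with earlier results of these data known, as were tests and alternatives. Each member is named, with values per library for the highest 2 and the lowest of each role, for the compared pairs, for members under 1 TPM and for those whose quantifications differ over 2-fold. Of other lists the highest and the undetected genes are named, except that some genes are not reported here. Pair differences and list medians use log2(TPM + 1) (pseudocount 1) within a library. Expected counts were rounded for edgeR 4.0.16 (R 4.3.3) with filterByExpr, TMM and an intercept only. On simulated counts this fit placed a set of genes with high spread above the rest but estimated their spread too low. DESeq2 1.42.0 was an alternative. Expected counts were whole within 0.01 for 36 members. The others (Atp6v0c, Lamp1, Hexa, Ppt1, Atp6v1g1, Glb1, Sgsh, Arsa, Arsb) carried fractions, as happens where reads match several genes. At these depths, 3 counts are 0.168 to 0.222 CPM, covering counting error only. Python 3.11.15, numpy 2.4.6, pandas 2.3.3 and matplotlib 3.10.9 were used.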

Additional observations from a re-analysis of the deposited data

How the results depend on the processing

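The directions of the 4 gene pairs held under each alternative. Leaving out a replicate, rescaling TPM or changing the pseudocount could not reverse them, since each pair had the same direction in 3 of 3 libraries. Only the second quantification, posterior mean TPM and protein-coding transcripts could have done so. For Psap and Grn the protein-coding scale could not either, as all Psap transcripts are protein-coding. The count of detected members stayed between 40 (bound of 5 TPM) and 45 (bound of 0.5 TPM, posterior mean TPM, or TPM rescaled over protein-coding genes). On protein-coding transcripts alone, an alternative chosen after seeing the data, it was 42. The share over all protein-coding genes was taken only at 1 TPM in the gene tables, so the other counts have no background beside them. Rescaling raises every TPM, as protein-coding genes held 25.4% to 29.8% of the total, so the bound of 1 TPM is looser there.

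List medians depend on the scale. With TPM rescaled over protein-coding genes they were 7.16 for the pump, 7.94 for the membrane and 6.46 for the hydrolases. On protein-coding transcripts they were 4.08, 5.24 and 3.44. The second quantification gave 5.84 for the pump and 5.13 for the hydrolases, and a pseudocount of 0.1 gave 4.57 for the hydrolases. The median retained-intron share was 45.8% in the second tables. Without 1 replicate in turn, the median BCV ran from 0.149 (without replicate 1) to 0.232 (without replicate 3).

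By posterior mean TPM, Atp6v0a2 was at 60.05 against 24.3 TPM, 2.47 times as high. Single levels moved by more than their SD for 34 members in the second quantification (33 up). That quantification ran higher in general, with a median ratio to the first of 1.28 over members and 1.33 over detected protein-coding genes. On protein-coding transcripts 33 members moved, all down, a direction fixed in advance because these are a part of each gene's transcripts. No paired analysis was possible because there is 1 group. Depth limits Smpd1, with 23 to 48 counts.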

Other observations

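Annotation and level went together among the members. The 27 genes with an annotated retained-intron transcript had a median of 44.9 TPM, and the 18 without had 10.7 TPM, with Psap the highest of these. Among detected protein-coding genes the medians were 14.3 and 6.72 TPM. Across the 45 genes the level rose with the number of annotated transcripts (Spearman 0.617, against 0.391 over 9689 detected protein-coding genes). It did not follow the length of the locus (Spearman -0.05, against 0.219 over the detected protein-coding genes). These are descriptions across genes in the same libraries.

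Of the 45 loci, 18 overlap another annotated gene, 16 of them on the opposite strand, and 8 overlap a detected gene. The share over all protein-coding genes was not computed, so these counts cannot be read as a trait of the members. Grtp1, at 13.9 TPM, shares 3317 bases with Lamp1, at 64.8 TPM. Cap1, at 65.8 TPM, shares 129 bases with Ppt1. Tmppe, at 6.19 TPM, lies with 6172 bases on the same strand as Glb1, at 6.51 TPM. Dgkq, at 24.0 TPM, shares 9342 bases with Idua, at 30.6 TPM. Reads from such shared stretches cannot be assigned here.

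The E-box hexamer was also counted in the other lysosomal lists, beside 9.18% of all and 12.4% of detected protein-coding genes with a window. The lists are small, and no difference was tested. It occurred in 5 of 8 sorting genes with a promoter window, 5 of 18 regulators, 3 of 8 cathepsins, 3 of 17 further membrane proteins, 2 of 10 further hydrolases, 2 of 5 pump assembly factors and none of the 7 further pump subunits.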
